A study of Homo sapiens with 9 samples.

Results

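Chromosome 19 carries the densest collection of ZNF genes in the human genome, and the 122 of them that were expressed in GBM43 glioblastoma cells are described here. They were chosen by name and by measured level, as protein-coding genes of chromosome 19 with a name of the form ZNF and a number. Each reached at least 1 FPKM (fragments per kilobase of gene, scaled by a size factor per library) in 3 or more of 9 libraries. Of 246 protein-coding ZNF genes on the chromosome, 122 met the rule and 124 did not, among 58735 genes in the table and 11845 that met the same FPKM rule and were tested. Because the members were selected on their FPKM in these same libraries, passing the rule is not a finding. It also bears on direction: 29 of the 122 genes were at 1 FPKM or more in all 3 core libraries and in fewer than 3 of the other 6, so they entered through the group in which they were high. Of the 122, 54 reached 1 FPKM in all 9 libraries and 11 reached it in fewer than 3 core libraries. Just inside the rule were ZNF555 and ZNF486, whose third-highest values were 1.04 and 1.02 FPKM, and just outside it were ZNF611 and ZNF814, at 0.968 and 0.953 FPKM.

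GBM43 is a glioblastoma cell line, grown here in serum-containing medium and then seeded in devices of hyaluronic acid gel through which cells can invade. Control devices, for which the descriptions name both culture medium and the DMSO vehicle, were cut by scalpel into a core and an invasive fraction, and devices given 50 µM of the NMDA receptor blocker MK801 were taken whole because little had invaded. No allele or transgene is described in any group, and each group has 3 libraries of poly-A selected RNA. The study asks what NMDA receptor signalling contributes to invasion. Libraries of treated (MK801) devices therefore differ from either control fraction both in treatment and in being a pool of the fractions, and these cannot be told apart. Whether the replicate libraries stem from independent cultures is not described, so each p-value speaks of the variation among the libraries at hand, part of which may be technical.

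ZNF genes encode C2H2 zinc finger proteins, in which each finger is held by a zinc ion bound between a pair of cysteines and a pair of histidines, and rows of fingers read DNA. Many of those on chromosome 19 also carry a KRAB domain, which binds the corepressor TRIM28 and through it brings the histone methyltransferase SETDB1 and HP1 proteins to DNA, above all to transposable elements. The genes arose by repeated tandem duplication and still lie in clusters, and the messenger RNAs of the KRAB class are typically poor in G and C and present at low levels.

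The finger sequences of the genes at either end of the GC range show how far the family spreads in base composition while keeping the same zinc-binding residues. For each of the 3 genes of lowest and the 3 of highest transcript GC content, 1 finger with the linker that follows it is printed 5′ to 3′ on the coding strand (84 bases, 28 codons, GRCh38 with GENCODE 29 gene models), with the codons of the 4 zinc-binding residues in capitals.
ZNF260, chr19:36515071-36515154, minus strand: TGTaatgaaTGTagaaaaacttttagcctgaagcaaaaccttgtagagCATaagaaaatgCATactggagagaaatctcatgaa
ZNF404, chr19:43873650-43873733, minus strand: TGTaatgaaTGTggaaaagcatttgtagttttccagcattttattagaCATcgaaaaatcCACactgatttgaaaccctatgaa
ZNF567, chr19:36719487-36719570, plus strand: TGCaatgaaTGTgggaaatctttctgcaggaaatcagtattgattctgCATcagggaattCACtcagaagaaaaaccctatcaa
ZNF865, chr19:55614294-55614377, plus strand: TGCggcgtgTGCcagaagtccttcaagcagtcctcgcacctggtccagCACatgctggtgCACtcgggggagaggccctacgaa
ZNF628, chr19:55481305-55481388, plus strand: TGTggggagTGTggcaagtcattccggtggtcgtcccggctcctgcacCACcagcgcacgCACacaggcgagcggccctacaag
ZNF837, chr19:58368433-58368516, minus strand: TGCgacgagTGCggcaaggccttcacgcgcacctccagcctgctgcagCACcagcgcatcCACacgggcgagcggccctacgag
All 6 windows lie in coding sequence within 1 exon. The GC content of the windows was 33.3% in ZNF260, 32.1% in ZNF404 and 38.1% in ZNF567, against 63.1% in ZNF865, 66.7% in ZNF628 and 70.2% in ZNF837. Most of the gap sat at the last base of the codons, where the share of G or C was 28.6%, 21.4% and 35.7% in the first 3 genes and 96.4%, 85.7% and 100% in the others. Over the whole coding sequences of the 122 genes, GC at the last codon base ran from 30.3% to 92.9% (median 44.3%), and at the other codon bases from 39.2% to 69.4% (median 45.8%).

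The median GC content of the 122 genes' transcripts was 45.8% (range 35.9% to 71.0%), against 49.2% for all genes tested. Of the 122, 87 genes (71.3%) lay under the all-gene median. The family was not uniformly poor in GC, because 19 genes lay above 60%, a boundary chosen after the data were seen. The other 613 protein-coding genes of the chromosome that met the FPKM rule had a median of 60.8%, and the 162 ZNF genes of other chromosomes had 49.6%. A KRAB A box pattern (the residues L and Y, 2 of any kind, V and M, 1 of any kind and E in the translated coding sequence) was found in 84 of the 122 genes, whose median GC was 45.0%. In the 38 genes without it the median was 56.5%, and of the 19 genes above 60% only ZNF324B carried the pattern. The number of fingers matching the C2H2 spacing ran from 0 to 29 per protein (median 11.5), with ZNF738 the 1 gene without a match. In the RefSeq GRCh38.p14 windows from 250 bases before to 50 after the start, 111 of the genes could be matched and had a median GC of 61.7%, against 65.7% for the 8457 tested genes with such a window.

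The libraries held 15.6 to 54.4 M fragments assigned to genes (M, mega), and they differed in the mean GC content of the transcripts they sampled. This was 51.1%, 50.9% and 49.8% in core libraries 1 to 3, 53.2%, 54.4% and 52.7% in invasive libraries, and 54.2%, 53.1% and 50.5% in treated libraries. At equal depth, core libraries detected 20322 to 21414 genes and invasive libraries 15975 to 19140, while the MK801 libraries detected 15161, 19031 and 21517. Of 10 glioblastoma and glial markers, SOX2, VIM, CD44, EGFR and PDGFRA reached 1 FPKM in every library. NES, GFAP and S100B did not in any, and OLIG2 and CHI3L1 were at 0, so the label rests on part of the list. None of 5 immune or 3 neuronal markers reached 1 FPKM in any library. Of 4 endothelial markers, PECAM1 reached it in 3 libraries, CDH5 in 2 and VWF and KDR in none, and their summed level ran from 1.34 to 1.48 FPKM among core, from 1.78 to 5.32 among invasive and from 1.34 to 1.60 among MK801 libraries. Of 5 fibroblast or pericyte markers, COL1A1 and PDGFRB reached 1 FPKM in every library, LUM in 3 and DCN and RGS5 in none. Their summed level ran from 37.9 to 74.3 FPKM among core libraries, from 220 to 407 among invasive and from 42.1 to 127 among MK801 libraries. Most of this sum came from COL1A1 (26.3 to 341 FPKM) and PDGFRB (9.26 to 64.8 FPKM). The part of these marker differences in the results was not tested.

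The ZNF genes were weakly expressed. Mean levels over the 9 libraries ran from 0.736 to 51.1 FPKM with a median of 2.10 FPKM, against 5.44 FPKM for all genes tested. A gene was covered by a median of 216.5 fragments per library (range 0 to 4703), at which counting error alone is 6.80%. Only 9 of 1098 values rested on 3 fragments or fewer, and all 9 were in MK801 library 1. Together the 122 genes took 0.226%, 0.246% and 0.278% of fragments in the core libraries, 0.170%, 0.169% and 0.177% in the invasive libraries and 0.170%, 0.213% and 0.285% after MK801. The core and invasive values did not overlap, and the MK801 libraries reached from the invasive level to above the core level. In bulk RNA, fewer cells of a type and less RNA per cell cannot be told apart.

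The 8 most abundant members were ZNF358, ZNF574, ZNF579, ZNF524, ZNF865, ZNF580, ZNF581 and ZNF787, and every one of them lay above 60% GC and lacked the KRAB A box pattern. The highest was ZNF581 (ENSG00000171425, chr19:55635459-55645622), a gene of 4 fingers. It measured 27.7, 41.9 and 20.8 FPKM in core, 36.8, 81.9 and 35.2 in invasive and 117, 65.9 and 32.8 in treated libraries. Its invasive and core values overlapped, and its highest and its lowest value among treated libraries differed more than the means of any groups. ZNF581 shares bases with its neighbour ZNF580 on the same strand, so the division of reads between them is uncertain. ZNF580 itself measured 13.0, 16.8 and 10.1 FPKM in core, 21.9, 51.2 and 21.0 in invasive and 48.7, 31.5 and 11.8 in treated libraries. Invasive library 2 and MK801 library 1 were the highest for ZNF580, as they were for ZNF581 and ZNF787.

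The median level of the genes that met the rule was lower in invasive than in core cells, and the difference of a gene went with its GC content. Since 29 of them met the rule through the core libraries, these levels are a description and not independent of the choice. The median member measured 2.32, 2.52 and 2.75 FPKM in the core libraries and 1.39, 1.21 and 1.59 in the invasive libraries, with all 3 core values above all 3 invasive values. In the MK801 libraries it was 0.958, 1.84 and 2.92 FPKM, from below every control library to above every one. The median over all genes tested moved far less, between 4.54 and 5.67 FPKM across the 9 libraries. The scaling of the deposited values levels the typical gene across libraries. This steadiness, and the small all-gene median differences given below, are therefore largely set by the scaling.

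**Figure D1:**
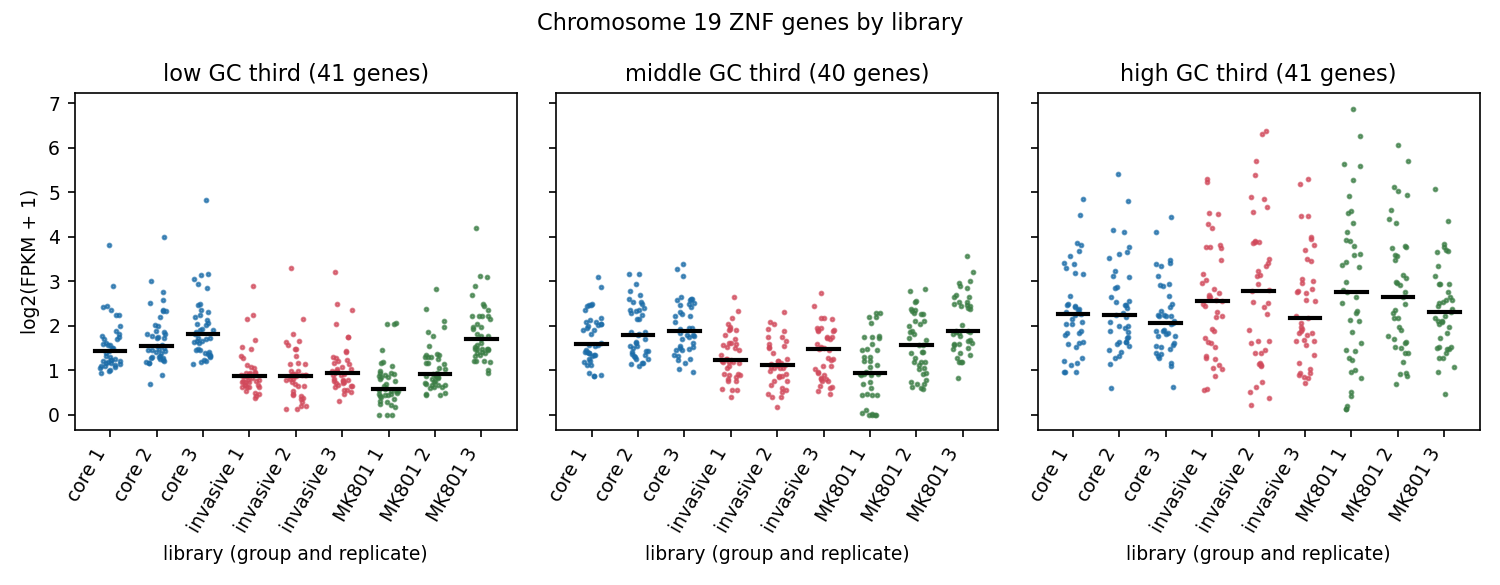
Level of each of the 122 genes in each library as log2(FPKM + 1), split by transcript GC content into the lowest 41, middle 40 and highest 41 genes; each point is 1 gene, the black bar is the median of the panel's genes, and colours mark the groups. The bars of the lowest-GC genes fall from 1.70, 1.94 and 2.53 FPKM in core to 0.822, 0.832 and 0.901 FPKM in invasive libraries, and the 3 MK801 libraries span 0.491 to 2.26 FPKM.

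Split by GC content, the medians of the lowest-GC and highest-GC members leaned in opposite directions. In the 41 genes of lowest GC (up to 43.9%), the median gene measured 1.70, 1.94 and 2.53 FPKM in core and 0.822, 0.832 and 0.901 in invasive libraries. In the 41 of highest GC (over 48.2%), it measured 3.78, 3.71 and 3.20 FPKM in core and 4.91, 5.82 and 3.52 in invasive libraries, and the groups overlapped. Of these 41 genes, 26 were higher and 15 lower in the invasive mean. Among the 19 genes above 60% GC the median was 5.31, 6.31 and 3.72 FPKM in core, 8.01, 13.7 and 7.23 in invasive and 16.2, 12.5 and 5.22 in treated libraries. For those 19 all 3 invasive values lay above all 3 core values, the reverse of the order in the other 103.

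**Figure D2:**
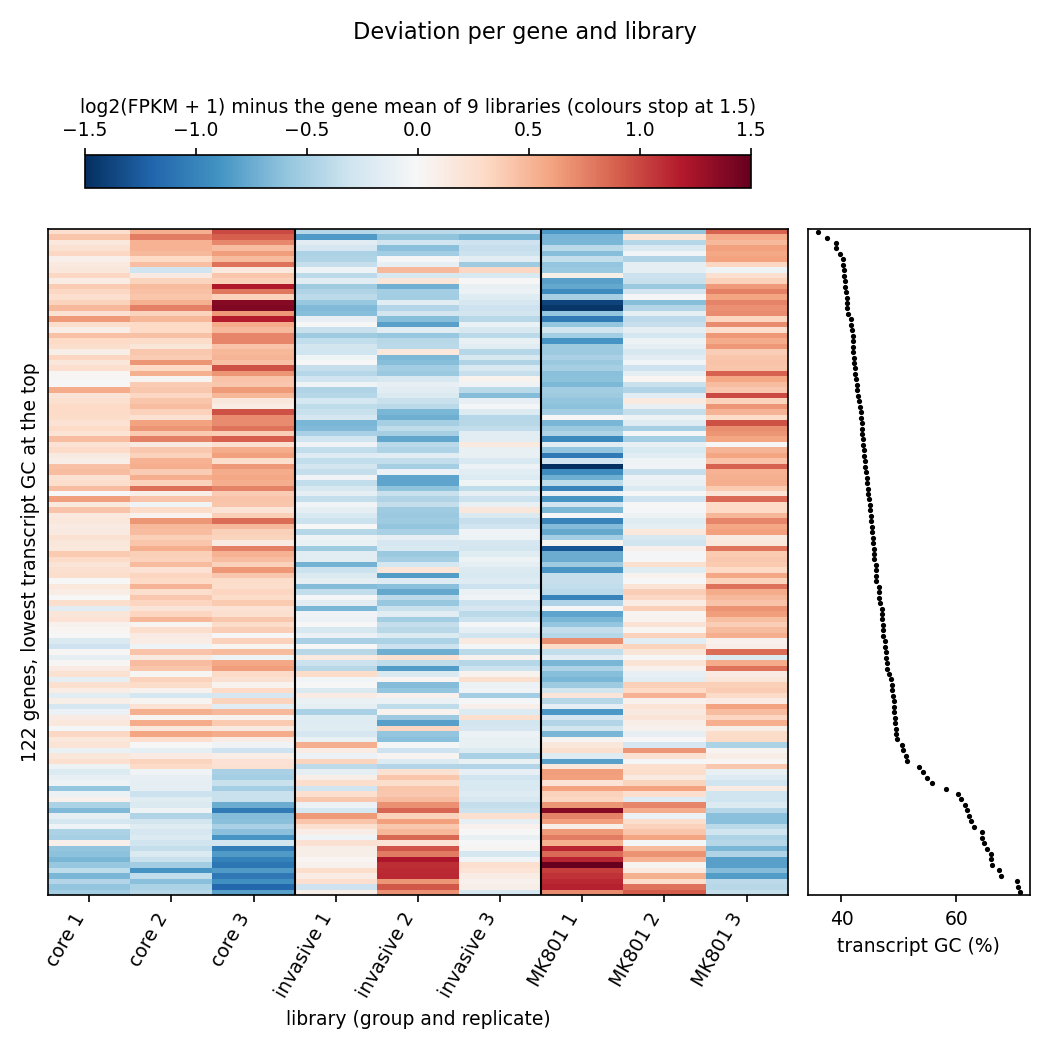
Deviation of each gene in each library from that gene's mean over the 9 libraries, on the log2(FPKM + 1) scale, with genes ordered by transcript GC content (right panel, percent) from lowest at the top; red is above and blue below the gene's own mean, and colours stop at 1.5. Core libraries and MK801 library 3 are red for low-GC genes and blue for the highest-GC genes, while invasive library 2 and MK801 library 1 show the reverse.

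Invasive and core fractions of control devices were compared gene by gene with limma on log2(FPKM + 1), which understates changes of weakly expressed genes. Of the 122 genes, 94 were lower and 28 higher in the invasive mean, against 50.9% of all genes tested lower, and the median difference was -0.52 against -0.02 for all genes. In the fit of all 9 libraries none of the 122 passed an adjusted p of 0.05, nor did any gene of the 11845 (0.0%); the smallest adjusted p among members was 0.0816, for ZNF404. At an unadjusted p under 0.05, 48 members were lower and 9 higher, where 17.4% of all genes were lower and 20.3% higher. All 3 invasive libraries lay below all 3 core libraries in 80 members (32.8% of all genes) and above them in 13 (32.0% of all genes). Limma-voom on fragments recovered from FPKM also called none of the 122 in any of the 3 comparisons over 9 libraries. With the 6 control libraries fitted alone, limma with Benjamini-Hochberg adjustment called 62 members lower (25.9% of all genes) and 14 higher (26.3%). Counts of lower genes, here and below, were taken over all 122, with the 29 that met the rule through the core libraries. Such counts are not independent of the choice and are descriptions, though all genes tested met the same FPKM rule. MK801 libraries vary most, and their spread enters the fit of 9. Without MK801 library 3 that fit called 62 members (41.3% of all genes), and without MK801 library 1 it called 58 (39.5%). With the replicate number as a block, the fit of 9 called 28 members, 23 lower and 5 higher, beside 2525 of the 11845 genes tested. The absence of calls thus depends on leaving the replicate number out, and whether it marks pairs is not known.

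Among the genes lower in the invasive fraction, ZNF404 (ENSG00000176222, chr19:43872363-43901385) had the smallest adjusted p. This KRAB zinc finger gene of 14 fingers, whose A- and T-rich finger is printed above, measured 3.00, 4.13 and 4.62 FPKM in core and 0.675, 0.986 and 0.869 in invasive libraries. Its core mean was 4.65 times its invasive mean, with no overlap, and the log2 difference was -1.40 ± 0.31 (SE, n = 3 per group; limma adjusted p = 0.0816 over 9 libraries and 0.0030 over the 6 control libraries). MK801 libraries gave 0.855, 2.43 and 3.44 FPKM, of which the lowest lay at the invasive level. ZNF404 was thus under 1 FPKM in all 3 invasive libraries and in MK801 library 1. It is among the 29 genes that met the rule through the core libraries, so its difference is not independent of the choice. ZNF404 overlaps 2 other genes, 1 of them on the other strand, and the use of strand in counting is not given in the sources used here.

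The other named genes lower in the invasive fraction were ZNF559, ZNF700, ZNF235 and ZNF816, with 9 to 18 fingers each. ZNF559 measured 2.37, 2.36 and 3.11 FPKM in core and 0.713, 0.672 and 0.879 in invasive libraries, a mean 3.46 times higher in core. ZNF700 measured 2.24, 1.95 and 3.70 FPKM in core and 0.918, 0.335 and 0.558 in invasive libraries, 4.36 times higher in core. In each of these genes every core library lay above every invasive library. ZNF235 measured 1.31, 1.23 and 2.10 FPKM in core and 0.598, 0.148 and 0.418 in invasive libraries, and ZNF816 measured 1.76, 2.53 and 2.35 in core and 0.686, 0.319 and 0.530 in invasive libraries. Limma adjusted p over the 6 control libraries was 0.00398 for ZNF559, 0.00546 for ZNF700, 0.0128 for ZNF235 and 0.00434 for ZNF816, and 0.0987 to 0.106 over all 9. Transcript GC in these 4 genes was 41.6% to 44.6%. All 4 were under 1 FPKM in every invasive library. ZNF700 and ZNF816 were also at 0 fragments in MK801 library 1, so they too met the rule through the core libraries. Their differences are not independent of the choice.

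The named genes higher in the invasive fraction were ZNF358, ZNF414, ZNF428, ZNF444 and ZNF837, all above 62% GC and all without the KRAB pattern. ZNF414, with 1 finger match, measured 4.22, 2.66 and 2.75 FPKM in core and 7.12, 13.7 and 6.85 in invasive libraries, a mean 2.87 times higher. ZNF358 measured 21.6, 27.1 and 16.2 FPKM in core and 38.4, 78.7 and 38.4 in invasive libraries, 2.40 times higher. ZNF837, whose printed finger has G or C at the end of every codon, measured 3.13, 2.64 and 1.97 FPKM in core and 5.64, 7.84 and 4.85 in invasive libraries, 2.37 times higher. Groups did not overlap in any of these 3 genes, and invasive library 2 was the highest of its group in each. ZNF428 averaged 7.94 ± 1.57 FPKM in core and 14.8 ± 2.28 in invasive libraries (SD, n = 3), and ZNF444, a SCAN-domain factor, 3.87 ± 0.636 and 6.71 ± 1.45. Over the 6 control libraries limma adjusted p for the 5 genes was 0.00563 to 0.0158.

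The KRAB class and the rest of the family parted along the same line. Of the 84 genes with the KRAB A box pattern, 76 were lower and 8 higher in invasive cells (median difference -0.59). Of the 38 without it, 18 were lower and 20 higher (median 0.32). As the classes differ in GC content, a difference of class and a difference of GC cannot be told apart from these medians alone. More fingers went with a lower invasive level (Spearman's rho -0.33 over 122 genes), and finger number itself fell with GC (rho -0.28). Promoter GC followed the difference less closely (rho 0.31 over 111 genes) than transcript GC did (rho 0.74 over 122 genes). Across all genes tested rho with transcript GC was 0.77. These correlations are across genes that share the same 6 libraries and are descriptions only.

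**Figure D3:**
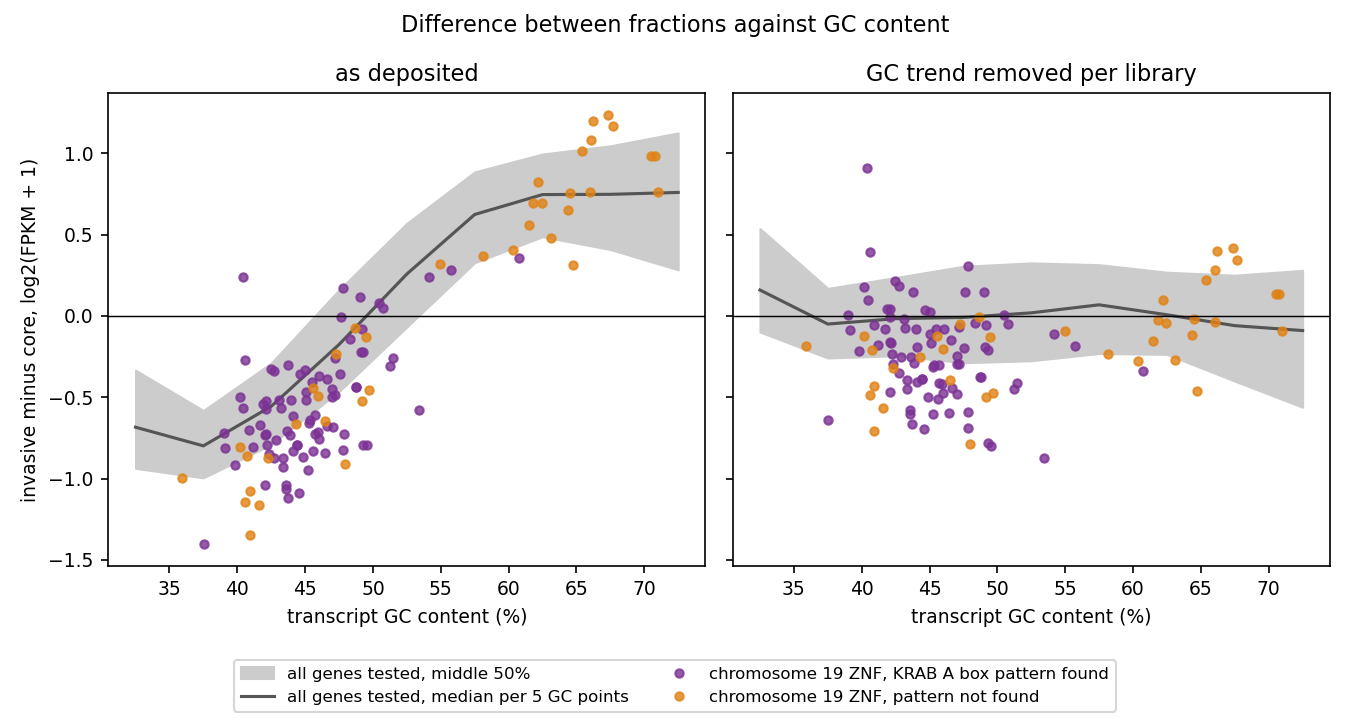
Difference between invasive and core means on the log2(FPKM + 1) scale against transcript GC content (percent), as deposited on the left and after removal of each library's GC trend on the right; each point is 1 of the 122 genes, purple where the KRAB A box pattern was found and orange where it was not, and the line and grey band are the median and interquartile range of all genes tested in steps of 5 GC points. On the left the points follow the rising band from -1.40 to 1.24. On the right most points of both colours lie below 0, the purple ones mostly inside or under the band.

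Other genes in the same ranges of GC content showed median differences of the same sign. The medians of the lowest, middle and highest GC genes of the family were -0.79, -0.63 and 0.31, and those of all other genes tested in the same GC ranges were -0.66, -0.30 and 0.48. ZNF genes of other chromosomes, which are included among those other genes, gave -0.76, -0.60 and 0.23 in these ranges. In the lowest range, 40 of the 41 chromosome 19 genes and 45 of the 45 on other chromosomes were lower in invasive cells. The 19 chromosome 19 genes above 60% GC were all higher (median 0.76), and so in median were other genes above 60% (0.75). The other genes of the chromosome had differences of the other sign: 563 of the 613 other protein-coding genes of chromosome 19 were higher in invasive cells, with a median of 0.72. Other tested genes with a mean of 1 to 5 FPKM, a range chosen after the data were seen to match the family's low levels, had a median of -0.26.

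The comparison was repeated after removing from each library its smooth trend of log2(FPKM + 1) over gene GC content, fitted to all genes tested. The median difference of the 122 genes shrank from -0.52 to -0.20, and that of all genes was 0.00. More of them than before, 98 of 122, were lower in the invasive mean, where 50.0% of all genes were. Of the other tested genes with a mean of 1 to 5 FPKM, 57.6% were lower after removal (median -0.06). By GC range the medians became -0.19, -0.30 and -0.11, while all other genes of those ranges were at -0.02, -0.01 and 0.03. Of the 122, 82 were lower both before and after, 16 went from higher to lower, 12 from lower to higher and 12 stayed higher. The genes above 60% GC no longer stood together, with 11 lower and 8 higher (median -0.02). The KRAB class had 68 of 84 genes lower (median -0.23), and the genes without the pattern had 30 of 38 lower (median -0.13). ZNF genes of other chromosomes showed a like remainder, with 123 of 162 lower and a median of -0.18, and other genes of chromosome 19 did not (median 0.06). No test of the difference between these sets of genes was made.

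After GC removal the fit of 9 libraries called none of the 122 genes lower or higher, and none of all genes (0.0%). Fitted alone, the 6 control libraries gave 15 members lower (7.88% of all genes) and 1 higher (9.35%) by limma with Benjamini-Hochberg adjustment. The 1 higher was ZNF738, and the 15 lower were ZNF264, ZNF548, ZNF550, ZNF134, ZNF211, ZNF417, ZNF256, ZNF606 and ZNF274 near the end of the long arm and ZNF823, ZNF791, ZNF302, ZNF404, ZNF766 and ZNF816 elsewhere, some of them named after their values were seen. Of these 16, 15 had also been called with the same sign before GC removal. At least ZNF404 and ZNF816 among them met the rule through the core libraries. ZNF738, at 40.4% GC, measured 1.22, 0.611 and 1.20 FPKM in core and 0.902, 1.78 and 1.46 in invasive libraries. These overlap, and its difference grew from 0.24 to 0.91 on removal of the trend. In MK801 libraries ZNF738 measured 0.344, 0.813 and 0.902 FPKM, all at or under the lowest invasive value.

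ZNF274 (ENSG00000171606, chr19:58183029-58213562) moved against its GC content of 53.4%. The protein has 5 fingers and is known to bind the finger-coding ends of other ZNF genes and to bring SETDB1 there. It measured 3.09, 4.27 and 4.07 FPKM in core, 2.29, 2.17 and 2.17 in invasive and 3.84, 4.14 and 4.72 in treated libraries. Every invasive library lay below every core and every MK801 library. Invasive minus core was -0.58 ± 0.19 as deposited (SE, n = 3 per group; limma adjusted p = 0.106 over 9 libraries and 0.0156 over the 6 control libraries) and -0.87 after GC removal (adjusted p = 0.0130 over the 6). MK801 minus invasive was 0.70 ± 0.19 (limma adjusted p = 0.298, the smallest of the family in that comparison), and MK801 minus core was 0.13 ± 0.19 (adjusted p = 0.637).

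Genes known to act on transposable elements were taken from a short fixed list, and the other members were not looked up for such a role. ZNF417 and ZNF587, paralogs that repress HERV-K elements and whose reads may be hard to separate, were both lower in the invasive mean. ZNF587 measured 3.24, 3.44 and 3.69 FPKM in core, 2.04, 0.982 and 2.02 in invasive and 1.79, 2.67 and 4.27 in treated libraries. ZNF417 averaged 2.52 ± 0.472 FPKM in core, 1.05 ± 0.443 in invasive and 1.94 ± 0.974 in treated libraries (SD, n = 3). No core library of either gene overlapped an invasive one, and MK801 libraries spread over both. ZNF649, which binds LINE-1 elements, averaged 1.95 ± 0.401 FPKM in core, 1.30 ± 0.186 in invasive and 1.69 ± 0.302 in treated libraries, and its difference of -0.35 became 0.03 after GC removal. ZNF91, ZNF93 and ZNF765, also on this list, did not reach the 1 FPKM rule. Their highest values were 1.46, 0.548 and 0.844 FPKM.

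Position was described by cutting the chromosome wherever neighbouring members lay more than 1 Mb apart, which gave 14 clusters. The largest, with 47 genes (chr19:55476332-58481230), had GC from 43.9% to 71.0%, 30 genes lower and 17 higher in invasive cells, and a median of -0.26. It holds ZNF865, ZNF628 and ZNF837, ZNF580 and ZNF581, and ZNF274. In the cluster of 15 genes at chr19:51571298-53458261, GC ran only from 40.2% to 45.7%, all 15 were lower and the median was -0.76. The 9 genes at chr19:36182060-37248738, among them ZNF260, ZNF567 and ZNF420, a KRAB protein known to restrain p53, were all lower with a median of -0.81. The pair at chr19:42068477-42228201, ZNF574 and ZNF526, had the highest median GC (59.8%), and both were higher, with a median of 0.46. After GC removal the medians of these 4 clusters were -0.20, -0.25, -0.19 and -0.19. Of the 16 genes called in the control libraries after GC removal, 9 lay in the cluster of 47.

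**Figure D4:**
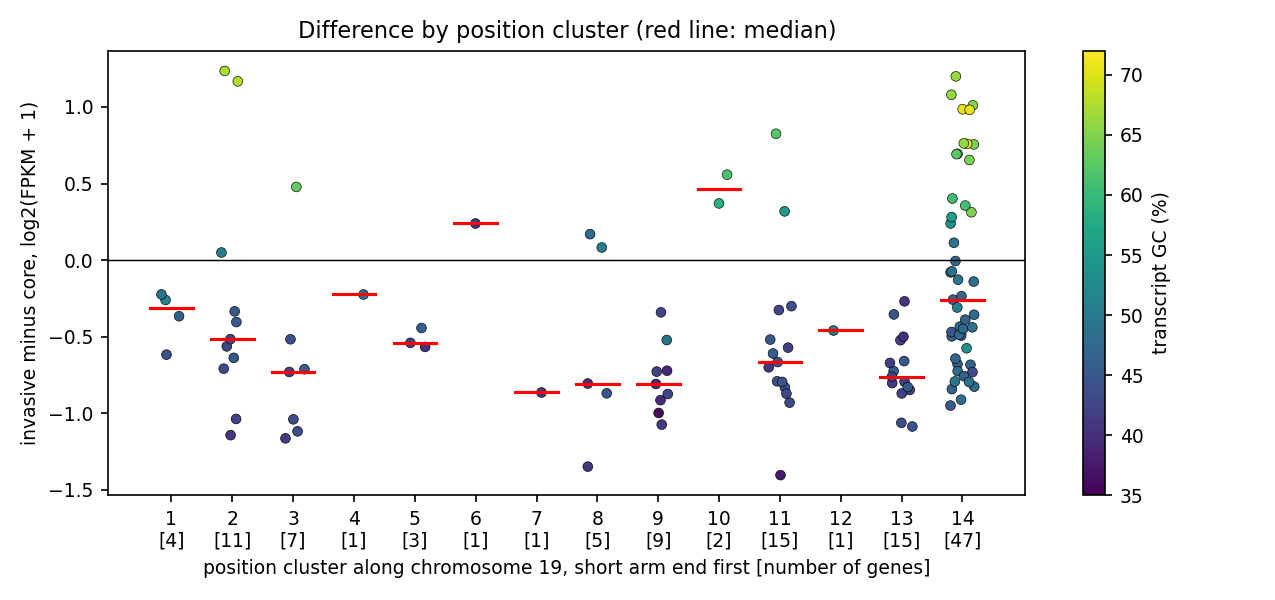
Difference between invasive and core means on the log2(FPKM + 1) scale for the genes of each of the 14 position clusters along chromosome 19; each point is 1 gene coloured by transcript GC content (percent), the red line is the median of the cluster, and numbers in brackets are genes per cluster. Within clusters 2, 3, 11 and 14 the yellow and green points of high GC lie above 0 and most blue and purple points of low GC below it.

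Cells of MK801 devices did not differ from core cells past the threshold in any of the 122 genes. Of them, 90 were lower and 32 higher in the MK801 mean (49.7% of all genes lower), with a median difference of -0.30. Limma called none of the 122 and none of all genes (0.0%), and the smallest adjusted p among members was 0.235. At an unadjusted p under 0.05, 10 were lower and 10 higher, where 10.6% of all genes were lower and 10.6% higher. The groups did not overlap in 7 members that were lower (8.82% of all genes) and 8 that were higher (9.89%), shares close to or below those of all genes. After GC removal the median was -0.01, with 64 lower and 58 higher. Which library was left out mattered here: without MK801 library 3, 45 members were called lower (24.9% of all genes) and 18 higher (25.2%), and without MK801 library 1 none was called (0.0%).

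The named genes lower in MK801 than in core cells were ZNF823, ZNF700, ZNF302, ZNF420 and ZNF816, and MK801 library 1 was the lowest of the 9 in each. At least ZNF700 and ZNF816 among them met the rule through the core libraries. ZNF302 measured 3.69, 4.69 and 7.79 FPKM in core and 0.225, 1.47 and 4.41 in MK801 libraries. The highest MK801 value lay within the core range and the lowest rested on 16 fragments. ZNF823 had 0, 14 and 310 fragments in MK801 libraries 1 to 3, or 0, 0.369 and 1.94 FPKM, against 1.70, 2.30 and 2.63 FPKM in core. A count of 0 there allows up to 0.0862 FPKM, taking 3 fragments as the limit for counting error. ZNF700, ZNF816, ZNF136, ZNF222, ZNF180 and ZNF17 were likewise at 0 fragments in that library, with limits of 0.0391 to 0.106 FPKM, and in none of the other 8.

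The named genes higher in MK801 than in core cells were ZNF574, ZNF526, ZNF628, ZNF865 and ZNF837. ZNF628 measured 4.12, 4.57 and 2.42 FPKM in core and 16.2, 12.6 and 4.78 in MK801 libraries. ZNF865, with 20 fingers, measured 11.9, 12.7 and 9.54 FPKM in core and 29.1, 33.7 and 13.4 in MK801 libraries. ZNF526 measured 4.33, 6.22 and 4.59 FPKM in core and 11.1, 11.1 and 7.67 in MK801 libraries. In these 3 genes every MK801 library lay above every core library, with MK801 library 3 the closest to core. The log2 differences were 1.26 ± 0.43 for ZNF628, 1.00 ± 0.35 for ZNF865 and 0.86 ± 0.26 for ZNF526 (SE, n = 3 per group), each with a limma adjusted p of 0.235, and became 0.53, 0.27 and 0.38 after GC removal.

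Against invasive cells, MK801 cells had higher levels of most of the family, by a small margin that did not pass the test. Of the 122 genes, 96 were higher and 26 lower (49.8% of all genes higher), with a median difference of 0.22 against 0.00 for all genes. Limma called none (0.0% of all genes). At an unadjusted p under 0.05, 6 were higher and none lower, where 3.75% of all genes were higher and 4.51% lower, and the groups did not overlap in 9 that were higher (5.22% of all genes) and 2 that were lower (5.63%). This difference did not follow GC content closely (Spearman's rho -0.18 over 122 genes) and hardly changed on GC removal, with a median of 0.18 and 94 genes higher. ZNF genes of other chromosomes gave 0.16 after GC removal, with 122 of 162 higher. It did rest on MK801 library 3: without that library the median was 0.04, with 66 genes higher and 56 lower, and without MK801 library 1 it was 0.44. With the GC trend removed these medians were 0.13 and 0.25. Both comparisons of MK801 cells with a control fraction use the same MK801 libraries.

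ZNF304, ZNF548, ZNF256, ZNF404 and ZNF274 were the named genes higher in MK801 than in invasive cells. ZNF304, a KRAB zinc finger gene of 15 fingers, measured 1.88, 2.68 and 2.88 FPKM in invasive and 3.57, 4.92 and 6.37 in treated libraries, with core at 3.09, 4.28 and 4.36. Its MK801 mean was 2.00 times its invasive mean without overlap (log2 difference 0.76 ± 0.24, SE, n = 3 per group; limma adjusted p = 0.379). ZNF548 measured 2.25, 1.60 and 2.28 FPKM in invasive and 2.36, 3.91 and 6.79 in treated libraries, a gap of little size between the nearest libraries. ZNF256 measured 1.26, 1.30 and 1.84 FPKM in invasive and 1.75, 3.10 and 5.24 in treated libraries, which overlap. The named genes lower in MK801 cells were ZNF738, ZNF599, ZNF792, ZNF428 and ZNF552, with log2 differences of -0.26 to -0.50 and limma adjusted p of 0.692 to 0.906. With the GC trend removed and MK801 library 1 left out, 7 members were called higher (4.27% of all genes) and none lower (4.98%): ZNF526, ZNF304, ZNF548, ZNF134, ZNF587B, ZNF256 and ZNF274. With all 9 libraries and the trend removed none of the 122 was called, where 0.633% of all genes were.

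The spread among MK801 libraries was the widest in the family's data. MK801 library 3 exceeded library 1 in 94 of 122 genes (50.6% of all genes tested), and the median ratio between these 2 libraries was 2.88 in the family and 0.963 in all genes. In the lowest-GC genes the ratio was 4.27 and in the highest-GC genes 0.576. Library 1 was the lowest of all 9 for 51 members (41.8%, against 29.4% of all genes) and library 3 the highest for 39 (32.0%, against 11.6%). ZNF260, the gene of lowest GC, showed this in 1 line of values: 1.98, 2.60 and 3.97 FPKM in core, 0.863, 0.887 and 0.901 in invasive and 0.380, 0.664 and 3.63 in treated libraries. The 3 invasive values lie close together, while the MK801 values reach from below them into the core range. ZNF567 behaved alike, with 1.13, 1.74 and 2.13 FPKM in core, 0.695, 0.553 and 0.541 in invasive and 0.179, 0.411 and 1.66 in treated libraries.

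**Figure D5:**
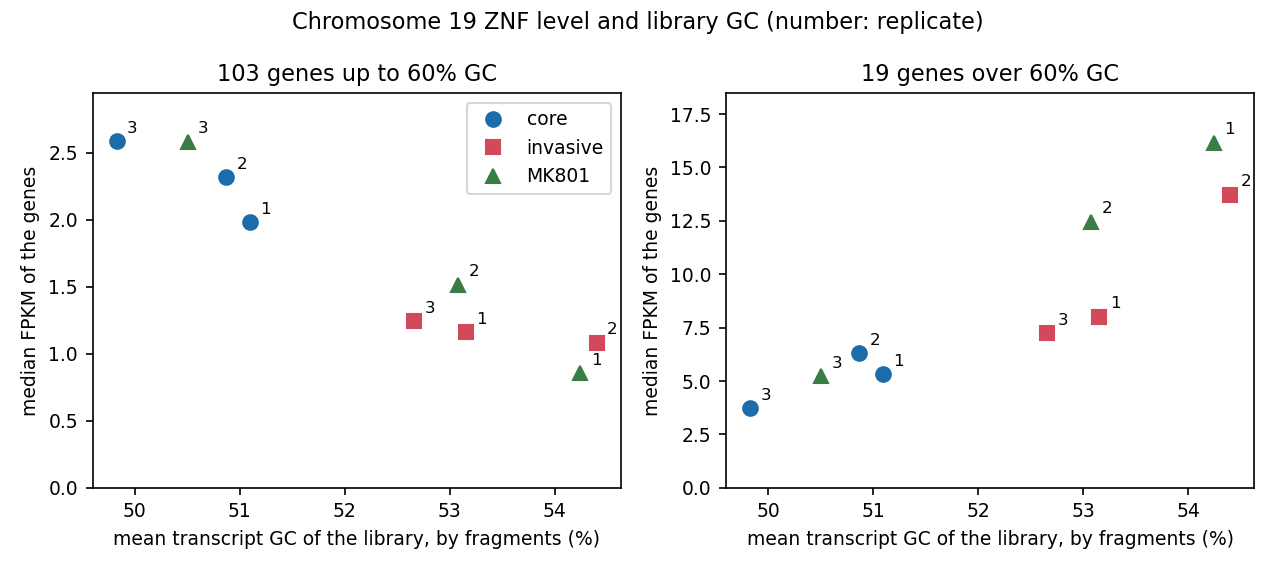
Median FPKM of the 103 family members up to 60% GC (left) and of the 19 above it (right) against the mean transcript GC content of each library weighted by fragments (percent); each point is 1 library, shapes and colours mark the groups and numbers the replicates. On the left the medians fall from 2.59 FPKM in core library 3 to 0.855 in MK801 library 1, and on the right they rise from 3.72 to 16.2 FPKM between the same libraries.

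Library by library, the level of the family mostly followed the GC content of the library's transcripts as a whole, with exceptions between groups. The 103 members up to 60% GC had medians of 1.98, 2.32 and 2.59 FPKM in core, 1.16, 1.08 and 1.24 in invasive and 0.855, 1.52 and 2.58 in treated libraries. Within each group these medians fell as library GC rose. MK801 library 3, with a library GC of 50.5%, matched core library 3 at 49.8%. Between groups the order broke: MK801 library 2 at 53.1% lay above invasive library 3 at 52.7%, and MK801 library 1 at 54.2% lay below invasive library 2 at 54.4%. In the 19 members above 60% GC, core library 2 at 50.9% had a median of 6.31 FPKM, above the 5.31 of core library 1 at 51.1%. Members also moved together: over the 9 libraries the median correlation between pairs of lowest-GC genes was 0.87, between pairs of highest-GC genes 0.19, and between a gene of one set and a gene of the other -0.61. After GC removal these medians were 0.21, 0.12 and 0.14. The pairs share the same 9 libraries, so the values are descriptions. With library GC, genes detected and group moving together, the part of each in the family's levels was not tested.

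The proteins through which KRAB zinc finger proteins act were split in direction. Of 18 partners on a list chosen for this comparison, 11 were lower and 7 higher in invasive than in core cells, and limma called none of them in any of the 3 comparisons over 9 libraries. Over the 6 control libraries 7 of the 18 were called lower and 3 higher, where 25.9% of all genes tested were called lower and 26.3% higher. In the same libraries after GC removal 2 were called lower and none higher, beside 7.88% and 9.35% of all genes. TRIM28, the corepressor that KRAB domains bind, has a GC-rich transcript (60.9%) and averaged 119 ± 20.1 FPKM in core, 274 ± 95.8 in invasive and 257 ± 141 in treated libraries (SD, n = 3). SETDB1, which methylates histone H3 at lysine 9, averaged 5.65 ± 0.0621, 7.24 ± 0.942 and 7.03 ± 0.978 FPKM. The HP1 gene CBX3, at 40.4% GC, averaged 42.0 ± 7.34 FPKM in core and 18.2 ± 3.74 in invasive libraries. The maintenance methyltransferase DNMT1 averaged 7.74 ± 1.21, 14.0 ± 1.82 and 10.4 ± 1.94 FPKM, and UHRF1, which guides DNMT1, 9.14 ± 2.00, 17.4 ± 3.14 and 8.72 ± 1.16. FAM208A of the HUSH silencing complex averaged 10.4 ± 3.19, 4.07 ± 1.09 and 6.18 ± 4.84 FPKM. TRIM28, CBX3 and FAM208A had log2 differences between invasive and core of 1.15, -1.17 and -1.15 as deposited and 0.45, -0.50 and -0.39 after GC removal.

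Scaling moved the size of the family's median differences, and under the scalings tried not their sign. The library total behind the deposited FPKM was 0.769 to 1.23 times the fragments assigned to genes. Median-of-ratios factors, which compare the typical gene of each library with its mean over libraries, were 1 in every library. The deposited values had thus already been scaled to level the typical gene, and not to the total of fragments assigned to genes. With values scaled to gene totals instead, the median of all genes moved from -0.02 to -0.25 for invasive minus core, with 7248 of 11845 lower. That of the family moved from -0.52 to -0.70, with 98 genes lower. For MK801 minus core the medians were -0.46 in the family and -0.21 in all genes. After quantile normalization, 90 of the 122 were lower in invasive than in core cells (median -0.33) and 72 lower in MK801 than in core cells (median -0.08). All 19 genes above 60% GC stayed higher in invasive than in core cells under both scalings. Of the 122 genes, 80 overlap another gene in the annotation and 59 overlap one on the other strand, and many have close paralogs, so single values may hold reads of neighbours.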

How the data were processed

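Gene expression in 9 libraries was deposited as FPKM; per the submitters' processing notes, HISAT2 2.0.5 and featureCounts 1.5.0-p3 were used with GRCh38, and the settings, strand included, are not given in the sources used here. Columns were matched to samples by the column name in each description (0 left unmapped). Genes at 1 FPKM in 3 libraries were tested (11845). Group means of log2(FPKM + 1) were fitted over 9 libraries with limma 3.58.1 (R 4.3.3), with a mean-variance trend and Benjamini-Hochberg adjustment over all genes (threshold 0.05, two-sided); it was tested on simulated data. An exact permutation test of 3 against 3 cannot go below p = 0.1 and was not used. Transcript GC was the length-weighted mean over GENCODE 29 transcripts (99.97% of tested genes, all 122 members), and GC trends were removed per library by loess (span 0.3). FPKM times gene length gave whole fragments (tolerance 0.01), from which depth was read. Coding sequences were the longest per gene, and matches to residue patterns are descriptions.

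The members, lists and rules were chosen with earlier results of these data known. Named genes were the 8 highest by mean, per comparison the 5 of smallest p in each direction, the 3 of lowest and highest GC, the nearest to the 1 FPKM rule, and fixed lists of retroelement binders and KRAB partners. Alternatives were pseudocounts, filters, scalings, a replicate block, groups alone, GC removal, limma-voom on recovered fragments and leaving out libraries; scaling to gene totals, and GC removal with a library left out, were chosen after the data were seen. Deposited column names give same-numbered core and invasive libraries a common stem, and whether these came from the same device is not stated in the sources used here. Same-numbered libraries did not deviate together in every pair, but with 3 libraries per group this cannot decide on pairing. The main fit left replicate numbers out, and a fit with them as a block is given beside it.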

Additional observations from a re-analysis of the deposited data

How the results depend on the processing

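Each of 3 comparisons was recomputed under 31 settings, both for the median difference of the 122 genes and for the number called by limma. The invasive minus core median stayed below 0 in all 31: it was -0.86 and -0.66 with pseudocounts of 0.1 and 0.5, -0.33 after quantile normalization, -0.70 scaled to gene totals, -1.22 with limma-voom on fragments (all genes -0.36) and -0.20 with the GC trend removed, with the block or the groups alone too, and, leaving out core or invasive replicates 1 to 3 as well, -0.23, -0.19, -0.21, -0.19, -0.23 and -0.17. The number called, 0 in the fit of 9, was 76 with the groups alone, 16 with GC removal and the groups alone, 0 to 62 on leaving out a library (58 without MK801 replicate 1, 62 without MK801 replicate 3) and 0 to 12 with GC removal as well (12 among 1706 genes without MK801 replicate 1, 2 among 551 without MK801 replicate 3). For MK801 minus core, 0 to 63 were called on leaving out a library (63 without MK801 replicate 3), and the median turned to 0.041 with GC removal and without MK801 replicate 1. For MK801 minus invasive, 0 to 7 were called (7 with GC removal and without MK801 replicate 1), and the median stayed above 0 in all 31 settings. With the replicate number as a block, 28 members were called in invasive minus core, 23 lower and 5 higher, among 2525 genes. The correlations of same-numbered core and invasive libraries were -0.007, 0.24 and 0.44, which neither establish pairing nor exclude it. With GC removal and the block none was called. Median-of-ratios factors of the deposited values were 1 in every library, so the values had already been levelled in that way and that setting changes nothing. Causes were not tested. At the median of 216.5 fragments counting error is small beside the spread between libraries. In MK801 library 1, of 18.4 M fragments, 9 members were at or under 3 fragments, and none was in the other libraries, down to 15.6 M fragments.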
